A study of Mus musculus with 6 samples.

Results

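The amino acid stress and serine pathway genes described here are 34 named genes, measured in cultured Runx3-/- and WT mouse CD8+ T cells. They were chosen by name, with earlier results of these data known. They are regulators of the amino acid response, amino acid transporters, enzymes of serine and one-carbon metabolism and other enzymes of amino acid metabolism. Each gene was represented by the array row that carried its symbol alone and had the highest mean over the 6 arrays. Of the 34 genes, 33 had such a row, out of 19938 genes in the series, and Pycr1 is named here without a level. Of these 33, 24 reached the median of the whole table, 4.26 on the log2 scale, on at least 1 array and were tested among 10021 genes. All 24 lay above that median on all 6 arrays, so none was tested only because of 1 genotype.

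When a cell runs short of an amino acid, uncharged tRNA activates the kinase GCN2, which phosphorylates the translation factor eIF2α. General translation then slows while translation of Atf4 mRNA increases, and the ATF4 protein, paired with C/EBP family partners, activates genes for amino acid uptake, asparagine and serine synthesis and tRNA charging. Dividing T cells take up large amounts of amino acids, and they use serine as the donor of one-carbon units for nucleotide synthesis.

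The 3 KO-labelled arrays held RNA of Runx3 -/- cells and the 3 WT arrays RNA of Runx3 +/+ cells, each from an individual mouse, and p-values here reflect the variation among these mice and cultures. All mice were of the ICR strain, labelled male and aged 6 weeks. Splenic CD8+ T cells of both genotypes were positively selected on beads, stimulated through CD3 and CD28 for 2 days, and then grown in 100 units/ml of IL-2 for 4 days. Only the Runx3 -/- cells were also sorted, against CD11c+ dendritic cells before culture and against CD4+CD8- cells after it, so genotype and sorting cannot be told apart. The sources used here do not give the disrupted part of Runx3, or the cells in which it was disrupted.

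Some arrays stood apart from the rest or went against a label. The Runx3 row, which need not cover the disrupted part and so does not check the genotype, read 8.91, 9.11 and 9.27 log2 units on the KO-labelled arrays, against 8.77, 8.26 and 9.16 on the WT arrays. Xist, which is transcribed from the inactive X chromosome of females, read 10.6 on WT1 and no more than 3.40 on the other 5 arrays, and the Y-linked Eif2s3y read 3.93 on WT1 and at least 9.24 elsewhere, so WT1 went against its label of male. KO2 and WT2 lay at opposite ends of the first principal component, which held 49.6% of the variance. T cell markers were bright on every array (5 of 5 genes, 9.87 to 12.1 log2 units), and 5 of 5 dendritic cell and 5 of 5 macrophage markers were below the table median on every array. Markers of other lymphocytes differed in part between genotypes, and 0 of those tested passed the adjusted p in the limma fit, though Cd4, Zbtb7b, the B cell gene Cd79b and the NK cell gene Klrb1c passed the unadjusted one. Cd4 read 6.95, 6.70 and 6.77 on the KO-labelled arrays, against 5.29, 5.80 and 6.50 on the WT arrays. Of the other CD4 T cell markers, Zbtb7b averaged 6.18 and 5.55 in KO-labelled and WT cells with overlapping groups, Foxp3 averaged 5.86 and 6.18 with overlapping groups, and Cd40lg stayed under the table median throughout. The log2 values of the 4 CD4 T cell markers summed to 21.4 to 23.6 on KO-labelled arrays and to 20.6 to 21.7 on WT arrays, which overlap. The 3 NK cell markers with a row summed to 10.3 to 10.6 on KO-labelled arrays and to 11.2 to 12.7 on WT arrays, with 2 of the 3 below the table median on every array. The third, Klrb1c, read 3.74, 3.76 and 3.77 on the KO-labelled arrays, against 4.34, 5.66 and 5.94 on the WT arrays. The 4 B cell markers with a row summed to 15.2 to 16.3 on KO-labelled arrays and to 15.7 to 16.6 on WT arrays, which also overlap. Of these 4, 3 were below the table median on every array. The fourth, Cd79b, did not overlap, at 5.21, 5.02 and 4.64 on the KO-labelled arrays, against 6.12, 5.99 and 5.53 on the WT arrays. The part of these cells in the results below was not tested, and in bulk RNA fewer cells of a type cannot be told apart from less RNA per cell.

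The promoters of several members carry the C/EBP-ATF response element, the short sequence through which ATF4 and its partners act on amino acid response genes. Promoters here are RefSeq windows on GRCm38.p6, from 250 bases before to 50 bases after the annotated start, and 30 of the 34 members had one. Searched on both strands as TGATGNAA, the element lay in 8 of these 30 members (26.7%) and in 4.51% of the 27025 genes with a window. The 8 were Asns, Chac1, Trib3, Slc7a11, Slc1a4, Pycr1, Got1 and Nupr1. Members were chosen by name, many of them as amino acid response genes, so this share is a description and not a test. The matches that lie wholly before the start, which is so for 6 of the 8 genes, are shown with their flanks, 5′ to 3′ along the gene's own strand. Slc7a11 has 2 matches, both within 1 stretch. Capitals mark the element, which reads TTGCATCA where it lies on the opposite strand. The windows are chr6:7693210-7693253 (minus strand) for Asns, chr2:119351028-119351077 (plus) for Chac1, chr19:43524679-43524728 (minus) for Got1, chr7:126625552-126625601 (minus) for Nupr1, chr11:120643823-120643872 (minus) for Pycr1 and chr3:50443651-50443700 (minus) for Slc7a11.
Asns: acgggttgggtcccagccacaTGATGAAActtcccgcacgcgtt
Chac1: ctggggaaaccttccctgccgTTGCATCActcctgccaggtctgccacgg
Got1: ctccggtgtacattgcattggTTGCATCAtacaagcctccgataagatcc
Nupr1: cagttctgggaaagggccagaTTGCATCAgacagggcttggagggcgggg
Pycr1: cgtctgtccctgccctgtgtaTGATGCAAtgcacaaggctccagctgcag
Slc7a11: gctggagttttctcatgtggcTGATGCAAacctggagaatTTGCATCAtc

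A match describes the letters of the window and is not a binding site. In Asns the element starts 23 bases before the annotated start. The E-box CACGTG, the sequence bound by Myc, lay in 3 of the 30 members (10%) and in 8.09% of all genes with a window. A RUNX motif, searched on both strands as TGTGGT or TGTGGC or TGCGGT or TGCGGC, lay in 13 of the 30 (43.3%) and in 48.7% of all genes. Of the 8 members with the response element, only Asns, Trib3 and Got1 were bright enough to test, and their log2 differences, KO-labelled minus WT, were -2.04, -0.77 and -0.37. Chac1, Slc7a11, Slc1a4 and Nupr1 were below the table median on every array.

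Most tested members read lower in KO-labelled than in WT cells, but no single member passed the test adjusted over all genes. The difference was negative for 21 of the 24 members (87.5%), against 52.0% of all tested genes, and its median was -0.47 log2 units, against -0.01 over all tested genes. With columns centred on the median of the tested genes, 19 were negative. Because members were chosen with earlier results of these data known, the shares in this paragraph are descriptions and not tests. At an adjusted p under 0.05 in the limma fit, 0 of 24 members were called, where the background was 0.629% of tested genes, and an unmoderated linear model called 0 of the 10021 tested genes, members included. At an unadjusted p under 0.05, 5 of 24 members were called (Asns, Ddit4, Sesn2, Slc3a2 and Slc1a5), where the background was 14.1%. At the study's threshold, an unadjusted p under 0.05 with at least a 1.5-fold change, 3 members were lower (12.5%, background 4.33%) and 0 were higher (background 3.97%). The 3 were Asns, Ddit4 and Sesn2. The KO-labelled values lay wholly below the WT values for 6 members (25.0%, background 10.9%) and wholly above them for 1 member, Slc38a2 (background 11.6%). KO1 weighed on these counts: without it 10 members were past the study's threshold (background 7.42%), 16 did not overlap downward (background 21.9%), and 1, Asns, passed the adjusted threshold. Without KO3 the count past the study's threshold was 5 (background 3.87%). The direction rested in part on KO2, since without it 17 of the 24 differences were negative and the median was -0.23. Without both KO2 and WT2 the median was -0.16 and again 17 were negative, and without WT1, 20 were negative.

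**Figure D1:**
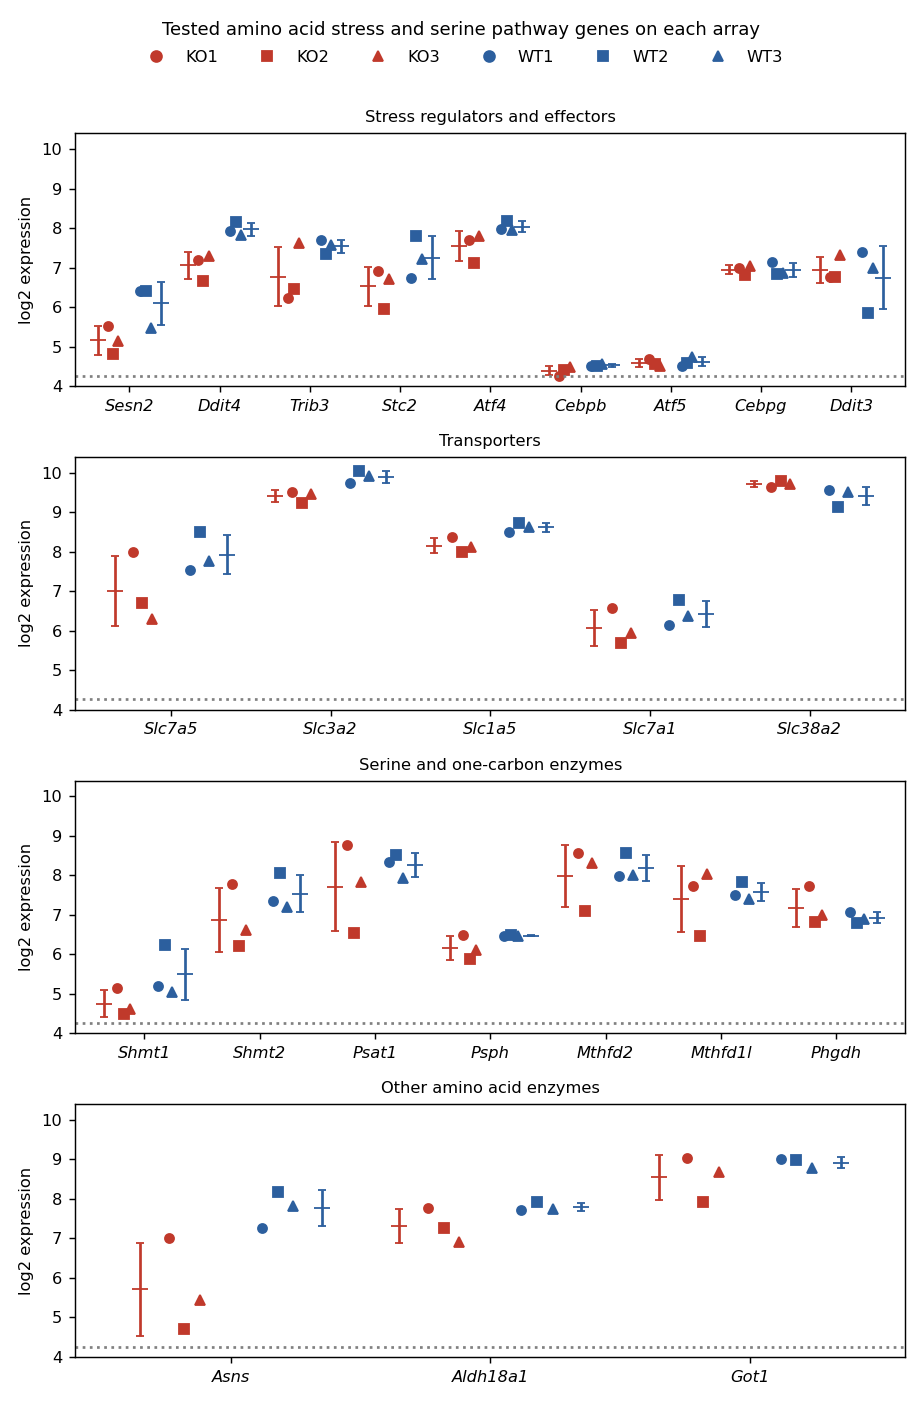
Log2 expression of the 24 tested members on each array, by role, with a mark for each of the KO-labelled and WT arrays and bars for the mean and SD of each genotype (n = 3). The table median of 4.26 is the dotted line. Asns spreads over 2.31 log2 units among the KO-labelled arrays and 0.91 among the WT arrays, whereas Slc3a2 spreads over 0.29 in each genotype.

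The largest difference among the 24 tested members was that of Asns, asparagine synthetase, which makes asparagine from aspartate with the amide nitrogen of glutamine. Asns read 7.01, 4.71 and 5.44 log2 units on KO1, KO2 and KO3, against 7.27, 8.18 and 7.83 on WT1, WT2 and WT3. The groups did not overlap, but KO1 lay close to WT1 and the KO-labelled arrays differed widely among themselves. The means were 5.72 ± 1.18 in KO-labelled cells and 7.76 ± 0.46 in WT cells (SD, n = 3 each), a difference of -2.04 (SE 0.56, 95% interval -3.38 to -0.71), or 4.12-fold more in WT. It was past the study's threshold but not the adjusted one (limma, adjusted p = 0.208). Under the alternatives run, the difference lay between -2.69 and -1.33 and the limma adjusted p between 0.0464 and 0.516. Without KO1 it was -2.69 (limma, adjusted p = 0.0464), without KO2 -1.54, without WT1 -2.29, and without both KO2 and WT2 -1.33.

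Among the other enzymes of amino acid metabolism, Aldh18a1 catalyses the first step of proline synthesis and Got1 is the cytosolic aspartate aminotransferase. Aldh18a1 read 7.76, 7.26 and 6.91 in KO-labelled cells, against 7.71, 7.92 and 7.76 in WT cells, a difference of -0.49 (limma, adjusted p = 0.390). KO2 and KO3 lay below the WT range and KO1 within it. Got1 differed by -0.37 (limma, adjusted p = 0.566), with KO1 above the WT range. Cth and Cbs, the enzymes that make cysteine from homocysteine, and the alanine aminotransferase Gpt2 read between 3.37 and 4.15 on every array, below the table median, and were not tested. Cth was dim throughout, at 3.62, 3.93 and 3.79 on the KO-labelled arrays, against 3.50, 3.52 and 3.50 on the WT arrays.

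Stress regulators and effectors gave 8 negative differences of 9 tested, with a median of -0.48, and 6 of 9 when columns were centred on the median of the tested genes. The regulator of the program is the transcription factor gene Atf4, which is controlled largely at translation, so its mRNA does not report its protein. Atf4 read 7.71, 7.12 and 7.81 on the KO-labelled arrays, against 7.97, 8.19 and 7.94 on the WT arrays. The groups did not overlap, with KO2 the lowest, and the difference was -0.48 (SE 0.21, 95% interval -0.98 to 0.01), which did not pass either threshold (limma, adjusted p = 0.361). Without KO2 it was -0.27, and without KO2 and WT2 -0.19.

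Ddit4, also named REDD1, encodes a stress-induced inhibitor of mTORC1, and it was the member with the smallest p. Its values were 7.20, 6.66 and 7.29 log2 units on the KO-labelled arrays, against 7.93, 8.16 and 7.84 on the WT arrays. All KO-labelled arrays lay below all WT arrays by a clear gap. The means were 7.05 ± 0.34 in KO-labelled cells and 7.98 ± 0.17 in WT cells (SD, n = 3 each), a difference of -0.92 (SE 0.20, 95% interval -1.41 to -0.44), or 1.90-fold more in WT, past the study's threshold but not the adjusted one (limma, adjusted p = 0.126; 0.0309 to 0.388 under the alternatives, the lowest with arrays weighted). Ddit4 and Asns were past the study's threshold under all 18 alternatives.

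Sesn2 encodes Sestrin 2, a leucine sensor that restrains mTORC1 when leucine is low. It read 5.52, 4.80 and 5.15 on the KO-labelled arrays, against 6.40, 6.41 and 5.46 on the WT arrays. WT3 lay just below KO1, so the groups overlapped by that pair. The difference was -0.94 (SE 0.31, 95% interval -1.66 to -0.21; limma, adjusted p = 0.267), and it was past the study's threshold in the limma fit of all arrays but not without KO2 (-0.76), WT1 (-0.78) or WT2 (-0.78), nor without both KO2 and WT2 (-0.60), nor with all arrays in the unmoderated linear model.

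Trib3, a pseudokinase that restrains ATF4 signalling, and Stc2, a secreted stress-response glycoprotein, were lower on average with overlapping groups. Trib3 read 6.22, 6.47 and 7.62 in KO-labelled cells, against 7.69, 7.35 and 7.57 in WT cells (-0.77; limma, adjusted p = 0.388), and here KO3, not KO1, lay within the WT range. Stc2 read 6.92, 5.96 and 6.70 in KO-labelled cells, against 6.73, 7.80 and 7.22 in WT cells (-0.73; limma, adjusted p = 0.392). Ddit3, which encodes the pro-apoptotic factor CHOP, read 6.75, 6.76 and 7.31 in KO-labelled cells, against 7.38, 5.85 and 6.99 in WT cells, and its difference was 0.20 (limma, adjusted p = 0.849). The lowest of its 6 values was WT2, the array on which 12 of the 24 members were highest.

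The remaining factors of this group were nearly level between genotypes. Cebpb, a C/EBP factor that pairs with ATF4, read 4.26, 4.40 and 4.49 on the KO-labelled arrays, against 4.49, 4.52 and 4.57 on the WT arrays. Its groups did not overlap, by a margin smaller than 0.01, its values lay at or just above the table median, and its difference was -0.14 (limma, adjusted p = 0.636). The overlap returned when columns were centred on the median of the tested genes. Atf5, an ATF4 relative, differed by -0.03 and Cebpg, another partner of ATF4, by a value that rounds to 0.00 and counts as negative above (95% intervals -0.35 to 0.29 and -0.35 to 0.35). Chac1, which degrades glutathione, and Nupr1, a stress-induced chromatin protein, read between 3.39 and 4.01 on all arrays and were not tested.

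**Figure D2:**
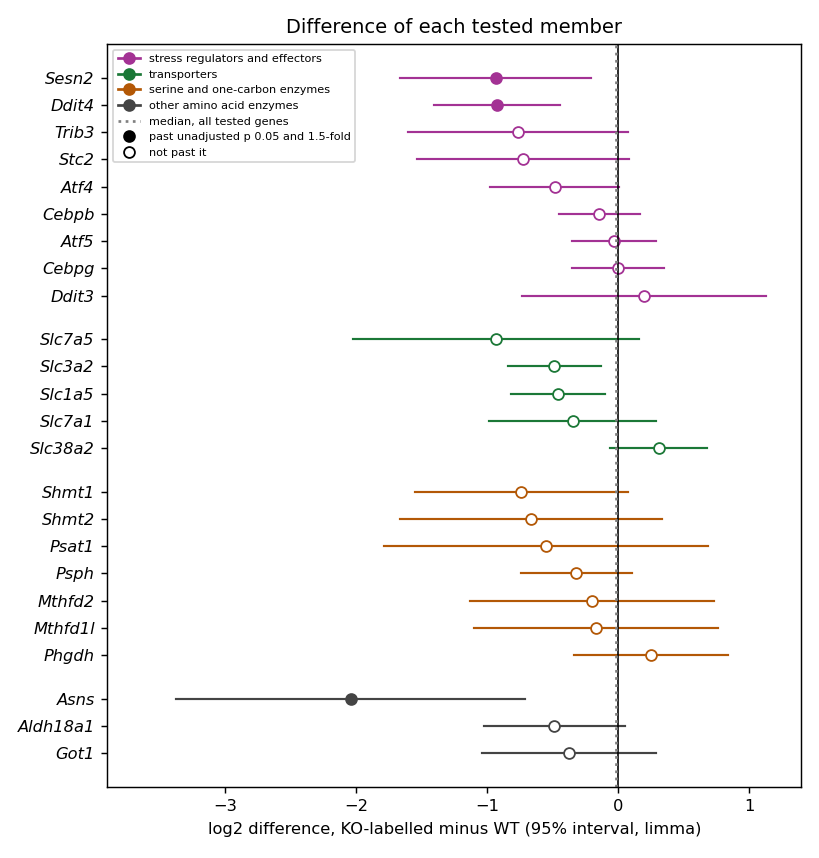
Log2 difference of each tested member, KO-labelled minus WT, with its 95% interval from the limma fit (3 arrays per genotype), coloured by role. Filled points are past the study's threshold and the dotted line is the median over all tested genes. The interval lies below 0 for Asns, Ddit4, Sesn2, Slc3a2 and Slc1a5 and includes 0 for the other 19 members.

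Transporters gave 4 negative differences of 5 tested, with a median of -0.46. Slc3a2 encodes the CD98 heavy chain, which carries several amino acid exchangers to the cell surface, including LAT1, the large neutral amino acid transporter encoded by Slc7a5. Slc3a2 read 9.52, 9.23 and 9.46 log2 units on the KO-labelled arrays, against 9.74, 10.03 and 9.91 on the WT arrays. The groups did not overlap and the spread was small in both. The difference was -0.49 (SE 0.15, 95% interval -0.84 to -0.13; limma, adjusted p = 0.245), less than 1.5-fold.

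Slc7a5, the partner of Slc3a2, varied far more among the KO-labelled arrays. It read 7.99, 6.71 and 6.29 on KO1, KO2 and KO3, against 7.53, 8.49 and 7.76 on the WT arrays, so KO1 lay inside the WT range and the other 2 below it. Its difference of -0.93 was larger than that of Slc3a2 but had a larger error (SE 0.46; limma, adjusted p = 0.410).

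Slc1a5 encodes ASCT2, an exchanger of glutamine and other neutral amino acids. It read 8.36, 8.00 and 8.11 on the KO-labelled arrays, against 8.49, 8.73 and 8.62 on the WT arrays. The groups did not overlap, and the difference was -0.46 (SE 0.15, 95% interval -0.82 to -0.10; limma, adjusted p = 0.271). Slc7a1, the transporter of arginine and lysine, differed by -0.35 with overlapping groups (limma, adjusted p = 0.580).

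Slc38a2, the sodium-coupled neutral amino acid transporter SNAT2, went the other way. It read 9.64, 9.78 and 9.72 on the KO-labelled arrays, against 9.57, 9.14 and 9.50 on the WT arrays. All KO-labelled arrays were above all WT arrays, KO1 narrowly, and the difference was 0.31 (SE 0.16, 95% interval -0.06 to 0.68), which did not pass either threshold (limma, adjusted p = 0.422). Slc7a11, the cystine importer, Slc7a3, a cationic amino acid transporter, Slc1a4, which carries serine and alanine, and Slc6a9, the glycine transporter, read between 3.18 and 3.88 on all arrays and were not tested.

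The 7 serine and one-carbon enzymes were all tested, and 0 of them had an unadjusted p under 0.05 (background 14.1%). With 7 genes, that count says little against this background. Serine is made from a glycolytic intermediate by Phgdh, Psat1 and Psph in turn, and the serine hydroxymethyltransferases Shmt1 in the cytosol and Shmt2 in the mitochondria then split it into glycine and a one-carbon unit. Mthfd2 and Mthfd1l process that unit in the mitochondria. The differences were negative for 6 of 7, with a median of -0.32, but that direction depended on KO2. Without it 3 of 7 were negative with a median of 0.04, and without both KO2 and WT2, 3 of 7 were negative with a median of 0.17. Without KO1, 7 of 7 were negative with a median of -0.49.

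Shmt1 had the smallest p of this group. It read 5.14, 4.50 and 4.61 on the KO-labelled arrays, against 5.20, 6.24 and 5.04 on the WT arrays. KO1 lay between WT3 and WT1, and WT2 stood well above the other 5 arrays. The difference was -0.74 (SE 0.34, 95% interval -1.55 to 0.07; limma, adjusted p = 0.389), and without WT2 it was -0.37.

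The first enzyme of serine synthesis, Phgdh, was the 1 enzyme of the group with a positive difference. Phgdh read 7.72, 6.82 and 7.00 in KO-labelled cells, against 7.08, 6.80 and 6.91 in WT cells (0.25; limma, adjusted p = 0.664), with KO1 the highest of the 6 arrays. Psat1 read 8.77, 6.53 and 7.84 in KO-labelled cells, against 8.34, 8.52 and 7.94 in WT cells (-0.55; limma, adjusted p = 0.649). The highest and the lowest Psat1 values were thus both on KO-labelled arrays. Psph read 6.48, 5.88 and 6.10 in KO-labelled cells, against 6.47, 6.48 and 6.47 in WT cells (-0.32; limma, adjusted p = 0.457). The WT arrays agreed to within 0.02 log2 units, and KO1 was level with them.

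The mitochondrial enzymes had the same wide spread among KO-labelled arrays. Shmt2 read 7.77, 6.22 and 6.63 in KO-labelled cells, against 7.36, 8.07 and 7.19 in WT cells (-0.67; limma, adjusted p = 0.506). Mthfd2 read 8.57, 7.09 and 8.30 in KO-labelled cells, against 7.99, 8.57 and 8.00 in WT cells (-0.20; limma, adjusted p = 0.849). Mthfd1l differed by -0.17 (limma, adjusted p = 0.875), with KO2 the lowest of the 6 arrays and KO3 the highest.

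The members therefore varied among arrays of the same genotype. Each gene was set against its mean on all 6 arrays, and these deviations were averaged over the 24 members. On this scale, KO1, KO2 and KO3 stood at 0.12, -0.63 and -0.18 log2 units, and WT1, WT2 and WT3 at 0.18, 0.38 and 0.13. KO1 lay level with WT3, and KO2 was the lowest array. The 3 KO-labelled arrays differed in how many members they placed below every WT array: KO1 did so for 7 of 24 (29.2%, against 20.6% of all tested genes), KO2 for 20 (83.3%, against 43% of all) and KO3 for 17 (70.8%, against 29.8% of all). KO1 was within the WT range for 11 members and above it for 6. The SD among KO-labelled arrays was larger than that among WT arrays for 17 of 24 members (70.8%, against 54.5% of all tested genes).

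The groups of members did not share 1 order of arrays. The serine and one-carbon enzymes stood at 0.42, -0.82 and -0.11 on KO1, KO2 and KO3, and at 0.10, 0.46 and -0.05 on WT1, WT2 and WT3. KO1 placed 0 of these 7 enzymes below all WT arrays and 4 above all of them. The stress regulators and effectors stood at -0.17, -0.47 and 0.01 on the KO-labelled arrays and at 0.27, 0.21 and 0.15 on the WT arrays, so that all KO-labelled arrays were below all WT arrays. The transporters stood at 0.16, -0.38 and -0.35 on the KO-labelled arrays and at 0.03, 0.37 and 0.17 on the WT arrays.

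Genes of the cell cycle varied over the same arrays. The 16 S phase genes deviated by 0.67, -1.35 and 0.41 log2 units on KO1, KO2 and KO3, and by 0.09, 0.59 and -0.41 on WT1, WT2 and WT3, and all 16 were lowest on KO2. The 15 tested G2/M genes deviated by 0.65, -1.49 and 0.76 on the KO-labelled arrays and by 0.19, 0.23 and -0.34 on the WT arrays, and all 15 were lowest on KO2. Of the 24 members, 16 (66.7%) were lowest on KO2, against 34.8% of all tested genes. Without KO2, 0 of 16 S phase and 0 of 15 G2/M differences were negative, with medians of 0.37 and 0.74. For the members, 17 of 24 were negative in that setting, with a median of -0.23. There, 2 members were lower past the study's threshold, Asns (-1.54) and Ddit4 (-0.73), against 3.00% of all tested genes. Both were also past it with all arrays. The part of the cell cycle in the members' levels was not tested.

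**Figure D3:**
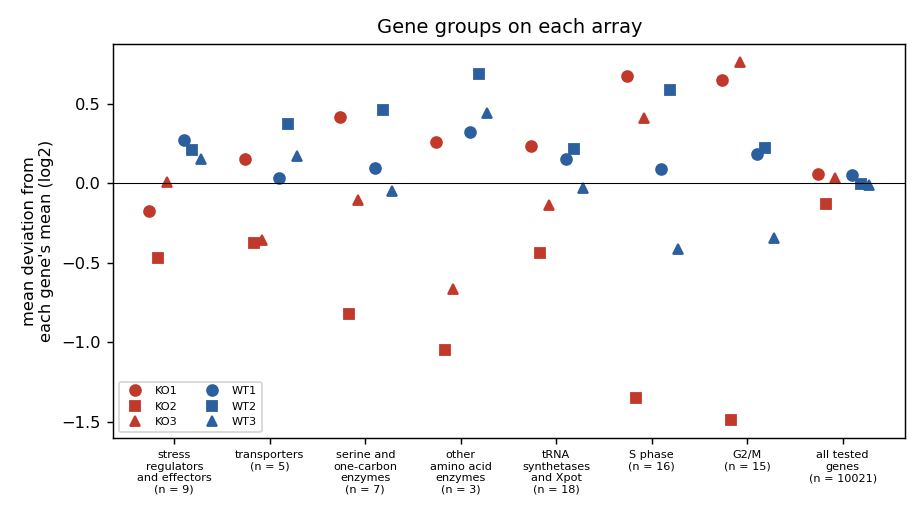
Deviation of each gene from its mean on all arrays, averaged over each group of genes, in log2 units, with a mark per array (KO1 to KO3, then WT1 to WT3). S phase and G2/M genes reach -1.35 and -1.49 on KO2, where the serine and one-carbon enzymes stand at -0.82, and KO1 is above 0 for each of these groups.

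Other genes of the pathway, taken from 5 lists of 95 genes in all, showed smaller differences. Of the 71 tested, 54 had negative differences, 4 were lower past the study's threshold (5.63%, against the background of 4.33%), 0 were higher, 0 passed the adjusted threshold, 7 had an unadjusted p under 0.05 (9.86%, below the background of 14.1%), and the median was -0.14. The 4 were Myc, Eif2ak2, Gclm and Gsr. The count in either direction depended on single arrays: it was 7 without KO1, 7 without WT3 and 2 without KO2. Of the 10021 tested genes, 744 were lower and 514 higher past that threshold without KO1. The numbers were 459 and 504 without WT3, and 301 and 463 without KO2.

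Of the sensors and growth regulators upstream of the response, 16 of 18 were tested, and 11 had negative differences with a median of -0.13. Myc encodes a transcription factor that drives amino acid transport and metabolism in activated T cells. Myc read 9.61, 8.90 and 9.17 on the KO-labelled arrays, against 10.15, 10.11 and 10.23 on the WT arrays. The groups did not overlap, the WT arrays lay within 0.12 of each other, and the difference was -0.93 (SE 0.20; limma, adjusted p = 0.117). Eif2ak2 encodes PKR, an eIF2α kinase activated by double-stranded RNA. It read 6.29, 5.07 and 5.67 in KO-labelled cells, against 6.82, 6.55 and 6.25 in WT cells, with an overlap of KO1 and WT3 (-0.86; limma, adjusted p = 0.301). Eif2ak4, which encodes the amino acid sensor GCN2, was close to the table median and differed by -0.01.

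The tRNA synthetases charge tRNA with amino acids, and many of them are ATF4 targets. The list also holds Xpot, which exports tRNA from the nucleus. All 18 genes tested, 17 synthetases and Xpot, had negative differences, from -0.80 to -0.02 with a median of -0.18. In the limma fit, 0 of 18 passed the unadjusted threshold (background 14.1%) or the adjusted one (background 0.629%). The smallest p was that of Gars, the glycine enzyme, at -0.46 (limma, adjusted p = 0.423). The 18 genes deviated by 0.24, -0.44 and -0.14 on KO1, KO2 and KO3, and by 0.15, 0.22 and -0.03 on WT1, WT2 and WT3, so KO1 was the highest of the 6 arrays, and 14 of 18 were lowest on KO2. Without KO2, 11 of 18 differences were negative with a median of -0.05, and with columns centred on the median of the tested genes 15 of 18 were negative.

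The other one-carbon and glycine genes were 11 enzymes and the mitochondrial carriers Slc25a32 and Sfxn1. They had 8 negative differences of 13 tested, with a median of -0.03, which turned to 0.02 with columns centred on the median of the tested genes. Of the 13, 0 passed the unadjusted threshold (background 14.1%). The smallest p was that of Gcsh, a subunit of the glycine cleavage system, at -0.44 (limma, adjusted p = 0.504). Other amino acid transporters had 7 negative differences of 10 tested, with a median of -0.09. Slc7a6, another partner of Slc3a2, read 7.51, 7.47 and 6.97 in KO-labelled cells, against 7.61, 8.03 and 7.75 in WT cells, with no overlap (-0.48; limma, adjusted p = 0.351).

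Enzymes of glutamine, proline, arginine, branched chain amino acid and glutathione metabolism had 10 negative differences of 14 tested, with a median of -0.22. The 2 past the study's threshold act on glutathione, the cysteine-containing antioxidant. Gclm, the modifier subunit of the enzyme that begins its synthesis, read 7.65, 7.25 and 7.79 in KO-labelled cells, against 8.18, 8.55 and 7.90 in WT cells (-0.65; limma, adjusted p = 0.283). Gsr, glutathione reductase, read 7.34, 6.72 and 7.31 in KO-labelled cells, against 7.65, 8.17 and 7.62 in WT cells (-0.69; limma, adjusted p = 0.283). Neither gene's groups overlapped. Another 3 genes of the list lay wholly higher on the KO-labelled arrays. These were glutamine synthetase Glul (0.34), the proline-degrading enzyme Aldh4a1 (0.25) and Bcat2, the mitochondrial branched chain aminotransferase. Of all tested genes, 11.6% lay wholly higher and 10.9% wholly lower. Over the 5 lists together, 3 of the 71 tested genes lay wholly higher and 5 wholly lower (7.04%). Bcat2 read 7.53, 7.47 and 7.38 on the KO-labelled arrays, against 7.22, 6.92 and 6.95 on the WT arrays (0.43; limma, adjusted p = 0.267).

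**Figure D4:**
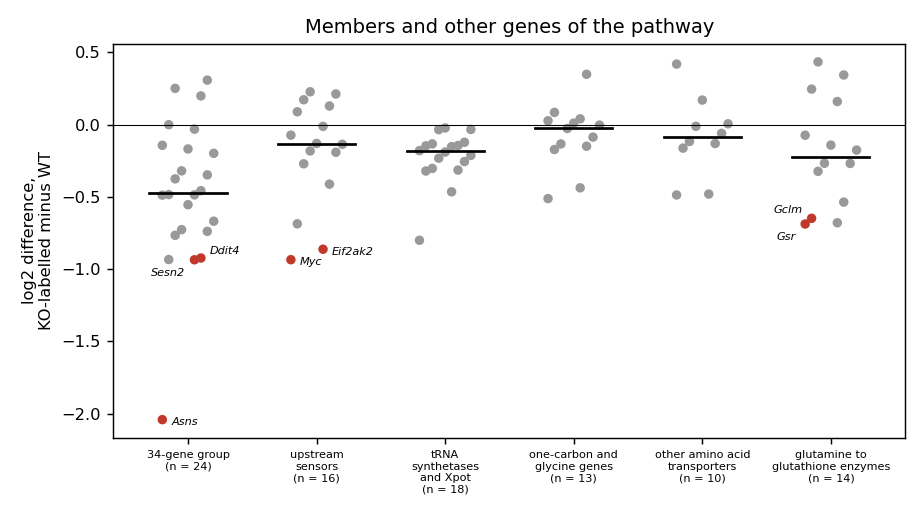
Log2 difference, KO-labelled minus WT, of each tested gene among the members and in the 5 other lists of the pathway, with 1 point per gene, a line at each list's median and genes past the study's threshold in red. The members' median is -0.47, and those of the other lists lie between -0.22 and -0.03.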

How the data were processed

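RNA of 6 cultures was hybridised to Affymetrix mouse gene ST arrays. The authors deposited 1 table of normalized log2 values, for which the submitters' processing notes name RMA and Partek, with versions not given in the sources used here. The RMA method subtracts background and equalizes distributions between arrays, and compresses differences of dim genes. Levels are therefore not compared between genes. Column medians ranged from 4.15 to 4.35 log2 units. The number of arrays limits precision.

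Of 35399 rows, 21789 paired with 1 symbol in the platform annotation, 1621 with several and 11989 were not named. The brightest row stood for each gene, and genes whose highest value reached the table median of 4.26 were tested (10021 of 19938). Differences, KO-labelled minus WT, were fitted with limma 3.58.1 (lmFit and eBayes, two-sided) in R 4.3.3, without covariates, and adjusted over all tested genes by Benjamini-Hochberg. The fit was also run on simulated data in which genes varied independently. That simulation held no shifts shared by many genes on 1 array, such as those of KO2 and WT2. Python 3.11.15 and matplotlib 3.10.9 made summaries and figures.

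Members and lists were chosen with earlier results of these data known, so no list was tested as a set. Values on each array are given for members past a threshold, members without overlap and the smallest p of each role, with others by range or value. From each other list, up to 3 genes past the study's threshold are named, or the gene with the smallest p, plus Myc; Eif2ak4, Bcat2, Glul, Aldh4a1 and the lymphocyte markers were named after their values were seen. Alternatives changed the filter, scaling, choice of row, block, variance model, array weights or arrays included.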

Additional observations from a re-analysis of the deposited data

How the results depend on the processing

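Under 18 alternatives, the 9 members given with values on every array for a call, a lack of overlap or the smallest p of a role kept their direction in all 160 fits that gave a value. That outcome was largely fixed by the choice of members. Leaving arrays out cannot reverse a member whose groups do not overlap, and several alternatives leave a difference unchanged by construction. Other members did change direction, among them Psat1, Mthfd2 and Mthfd1l without KO2 (0.04, 0.25 and 0.30) and Ddit3 without WT2 (-0.25). The count past the adjusted p was 2 with array weights (Asns and Ddit4, limma adjusted p = 0.0471 and 0.0309) against 0, and 0 to 1 when 1 array was left out. The count lower past the study's threshold was 5 with array weights (4.99% of all tested genes), against 3, and 2 to 10 when 1 array was left out (3.00% to 7.42% of all). Downward non-overlap covered 6 to 16 members when 1 array was left out (13.7% to 21.9% of all tested genes). Upward non-overlap covered 3 members, against 1, without the filter on dim rows (which admits Cth and Slc6a9) and 3 without WT2 and KO2. The share of all genes lying wholly higher was not computed in these 2 settings, so neither count has a background. Non-overlap is more frequent with fewer arrays: without WT2 and KO2, 21.9% of all tested genes lay wholly lower, against 10.9% with all arrays. The median difference was -0.16 without WT2 and KO2, and -0.56 to -0.23 when 1 array was left out. Other pathway genes past the study's threshold, in either direction, numbered 1 in the unmoderated linear model, against 4. The range was 2 to 7 when 1 array was left out. Of all tested genes, 267 were lower and 241 higher past it in the unmoderated model, against 434 and 398. Centring on the median of tested genes, chosen after seeing the data, left 19 of 24 members negative and 6 of 9 stress regulators and effectors negative. Of all genes, 63 passed the adjusted p, against 36 without the filter, 0 in the unmoderated model, 547 with array weights and 9 to 67 when 1 array was left out. The labels share replicate numbers, but deviations of same-numbered arrays correlated at -0.13, -0.37 and -0.13 and 0 arrays correlated best with their own number. No pairing by number was thus seen, but with 3 arrays per genotype this check cannot show that it is absent. With the replicate number as a block, 1 gene passed the adjusted p and 0 members did. In that fit 3 members were lower past the study's threshold, against 3.85% of all tested genes. Apart from the filter and the arrays left out, the cause of these changes was not tested. Probes near the table median have little signal over background, which limits what the 9 dim members can show.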
